A study of Mus musculus with 9 samples.

Results

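The genes examined were the nuclear genes for the mitochondrial respiratory chain and ATP synthase in mouse lung macrophages. Of 24346 gene symbols, 92 began with Ndufa, Ndufb, Ndufc, Ndufs, Ndufv, Uqcr, Cox4 to Cox8 or Atp5, or were Sdha to Sdhd. Of these, 87 reached 1 FPKM (fragments per kilobase of transcript, scaled for library depth) in at least 3 of 9 samples and are the members described here. They made up 36 genes of complex I, 8 assembly factors of complex I, 4 genes of complex II, 8 of complex III, 14 of complex IV, 16 of complex V and the supercomplex factor Cox7a2l. The 5 genes below that level were Cox4i2, Cox7b2, Cox8b, Cox8c and Ndufa4l2, and Ndufb1 had no row in the tables. Ndufa4 was counted with complex IV, where its protein sits, although its name places it in complex I.

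The study sorted macrophages from lungs of female C57BL/6 mice at postnatal week 10, with 3 samples per population. Ctrl-AM were alveolar macrophages (AMs) of control mice that received vehicle in the left lung. Tumor-AM were the same kind of cell from mice whose left lung held Lewis lung carcinoma (LLC), a mouse lung cancer line of C57BL/6 origin that carried tdTomato. Tumor-macrophage were the tumor-associated macrophages (TAMs) of such mice. All were CD45+ autofluorescent cells; AMs carried Siglec-F, and TAMs lacked it and carried F4/80 and CD11b. Control and tumor-bearing mice were bred apart, so any effect of this cannot be told apart from that of the tumor, and no group holds TAMs without a tumor.

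The respiratory chain passes electrons from NADH (complex I) and succinate (complex II) through ubiquinone to complex III, and by cytochrome c to complex IV, which reduces oxygen. Complexes I, III and IV pump protons, and complex V uses the proton gradient to make ATP. AMs live on the air side of the lung, where oxygen and lipid are abundant, and are known for oxidative metabolism of fatty acids. Most subunits are encoded in the nucleus, and the 13 subunit genes of the mitochondrial genome were not analysed here.

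Member promoters were examined first, because respiratory chain genes are textbook targets of the factors NRF1, GABP (which binds ETS motifs) and YY1. Windows from 250 bases before to 50 bases after the RefSeq start (GRCm38.p6) were available for 74 of the 87 members and for 27025 genes in all. The letters GCGCANGCG, the core of the NRF1 motif, occurred on either strand in 21 of the 74 members (28.4%) and in 6.47% of all windows. The ETS letters CCGGAAG occurred in 16 members (21.6%, against 9.12%) and the YY1 letters AANATGGCG in 9 (12.2%, against 2.51%). The TATA box letters TATAAA were rarer in members, at 5 windows (6.76%) against 14.2%. Median GC content was 58.5% in members and 52.7% in all windows. Matches of different motifs may share bases, and these are counts of windows with any match, however many matches a window held.

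The stretches below lie in those windows, outside annotated exons, and are written 5′ to 3′ on the strand of the gene. Motif letters are in capitals. Each stretch is only part of its window, and the ETS letters counted for Cox6b1 and Cox6a1 lie outside the stretches shown. They show the gene pair Cox6b2 and Cox6b1, whose levels parted most among the groups, then Cox6a1 with its NRF1 letters and Ndufaf1 with its ETS letters, and Ndufa4 and Ndufc2, which changed in opposite directions.
Cox6b2, chr7:4753095-4753225, minus strand: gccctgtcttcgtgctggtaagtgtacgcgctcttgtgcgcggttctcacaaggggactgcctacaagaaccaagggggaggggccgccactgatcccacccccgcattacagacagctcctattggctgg
Cox6b1, chr7:30626152-30626301, minus strand: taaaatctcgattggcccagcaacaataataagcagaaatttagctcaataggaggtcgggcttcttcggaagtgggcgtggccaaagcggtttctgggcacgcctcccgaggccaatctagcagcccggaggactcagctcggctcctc
Cox6a1, chr5:115348982-115349129, minus strand: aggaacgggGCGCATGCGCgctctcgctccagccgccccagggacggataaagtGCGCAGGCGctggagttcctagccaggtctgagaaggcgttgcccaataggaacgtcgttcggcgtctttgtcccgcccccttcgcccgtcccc
Ndufaf1, chr2:119662835-119662984, minus strand: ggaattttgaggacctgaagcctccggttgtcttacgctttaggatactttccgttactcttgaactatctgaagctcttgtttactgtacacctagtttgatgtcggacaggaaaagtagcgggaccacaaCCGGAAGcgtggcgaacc
Ndufa4, chr6:11907498-11907647, minus strand: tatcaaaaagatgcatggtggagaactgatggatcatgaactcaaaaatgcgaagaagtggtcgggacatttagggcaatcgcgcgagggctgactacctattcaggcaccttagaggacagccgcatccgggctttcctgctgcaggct
Ndufc2, chr7:97399853-97400002, plus strand: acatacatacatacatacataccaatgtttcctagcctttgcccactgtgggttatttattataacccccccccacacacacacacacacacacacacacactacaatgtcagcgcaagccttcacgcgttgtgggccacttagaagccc
A match is a description of letters and was not tied to binding or to any change in level.

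Libraries held an estimated 10300000 to 12900000 reads. The summed FPKM of the members ran from 16002 to 19399 per sample, or 2.07% to 3.05% of all FPKM. The library Tumor-macrophage 1 had the lowest value of its group for 70 of the 87 members. Tumor-AM 1 was lowest in its group for 59 and Ctrl-AM 1 for 41, and Tumor-macrophage 2 was highest for 63. The deviation of Tumor-macrophage 1 from its group mean also rose with transcript length across 10617 genes (Spearman 0.20), a description over genes that share 1 library. This value was 0.13 for Tumor-AM 1, −0.16 for Tumor-AM 3 and −0.17 for Tumor-macrophage 2. Members had short transcripts, with a median of 758 bases against 2569 for the genes tested. Counts and calls that changed without Tumor-macrophage 1 are given without it as well. Of the marker lists, AM genes summed to 1469 to 1693 FPKM in Ctrl-AM samples, 1219 to 2183 for Tumor-AM and 130.3 to 156 for TAMs. Epithelial markers summed to 125 to 262, 59.2 to 112 and 20.4 to 70.5 FPKM in the same order, and B cell markers to 12.7 to 16.8, 3.15 to 7.49 and 31.5 to 58.2 FPKM. Of the epithelial genes, Epcam fell without overlap (means 55.2, 10.5 and 0.462 FPKM), as did Sftpb at no more than 0.736 FPKM. Scgb1a1 measured 169 FPKM in Ctrl-AM 1 and 5.22 and 2.2 FPKM in the other Ctrl-AM samples. Cdh1, Scgb1a1, Sftpc and Ager overlapped between the AM groups, and the Ager mean was higher in Tumor-AM (3.38 against 2.14 FPKM). Markers fixed for tumor macrophages summed to 98.1 to 195, 343 to 628 and 23064 to 35616 FPKM, and were higher in each Tumor-AM than in each Ctrl-AM sample. So were fibroblast markers, at 3.24 to 6.35, 7.84 to 50.1 and 6.11 to 9.55 FPKM. The same held for the sum of general macrophage markers, at 1533 to 1658, 1951 to 2040 and 2641 to 3025 FPKM. Cd68 held most of that sum, with means of 1216 FPKM in Ctrl-AM and 1593 FPKM in Tumor-AM. Itgam (1.17 and 4.2 FPKM) was also higher in each Tumor-AM sample, Adgre1 (138 and 119 FPKM) was lower in each, and Csf1r and Itgax overlapped. Apoe held most of the tumor macrophage sum, and Cx3cr1 and Tgfb3 overlapped between the AM groups. So did the fibroblast markers Col1a1, Col1a2 and Pdgfra. None of these markers was listed at 0 in every sample. The part of these other cells in the changes below was not tested. In RNA of pooled sorted cells, fewer cells with an RNA and less RNA per cell cannot be told apart.

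Respiratory chain genes were among the most abundant RNAs of all 3 populations. The median member stood at 168 FPKM in Ctrl-AM, where the median gene tested stood at 9.14 FPKM. Among genes tested, this is percentile 94.8; the median member lay at percentile 94.3 for Tumor-AM and 94.2 for TAMs. Cox6b1, a subunit of complex IV that faces the intermembrane space, had the highest level in each group, at 867 ± 19.9, 830.2 ± 63.2 and 735 ± 57 FPKM (SD, n = 3). Cox4i1 of complex IV and Atp5b, the catalytic β subunit of ATP synthase, came next in each group. They differed by less than the SD of either in Ctrl-AM (759 ± 21.7 and 749 ± 34.3 FPKM), and Atp5b reached the level of Cox6b1 in TAMs (733 ± 63.9 FPKM). Within complex I the mean level in Ctrl-AM ran from 29.6 to 542 FPKM, and within complex III from 71.6 to 652 FPKM. The assembly factors, which help build complex I and are not part of it, ran from only 2.84 to 17.1 FPKM.

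The first comparison, Tumor-AM against Ctrl-AM, asks what differs in AMs when the lung holds a tumor. On the deposited scale, 1 respiratory chain gene passed the test. With limma on log2(FPKM + 1) and an adjusted p below 0.05 over 10686 genes, 7.11% of all genes were higher and 3.18% lower. Of the 87 members, 0 were higher and 1 was lower, and at an unadjusted p below 0.05 these counts were 0 and 9. After rescaling to TPM (FPKM rescaled to an equal sum in each sample), 13 members (14.9%) were lower, beside 7.83% of all genes, with medians of −0.20 and −0.10. On the deposited scale the median log2 change was −0.07 over members and 0.01 over all genes. The 95% interval of the change lay within 0.5 log2 units of 0 for 85.1% of members, against 58.3% of all genes. By complex, the median change was −0.04 for complex I, 0.08 for complex II, −0.09 for complex III, −0.13 for complex IV and −0.05 for complex V. The sign for complex II depended on scaling, as its median was −0.06 after rescaling to TPM.

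The complex I assembly factors had the lowest median change in this comparison, −0.24. All 8 had negative values, as had 67 of the 87 members and 5056 of the 10686 genes tested. Ndufaf2, an assembly factor that binds a late intermediate of complex I, was the 1 member called. It measured 17.6, 15.1 and 17.4 FPKM in Ctrl-AM samples and 12.1, 13.9 and 10.7 FPKM in those of Tumor-AM. The groups did not overlap, and the log2 change was −0.43 ± 0.113 (SE, limma, adjusted p = 0.0392). Its exons overlap those of a noncoding gene on the other strand, and the use of strand in counting was not stated. The call was lost on leaving out each of 6 single libraries (Ctrl-AM 1, 2 or 3, Tumor-AM 1 or 3, Tumor-macrophage 3), with an adjusted p of 0.0501 to 0.138. It was also lost with no filter on low values (0.0707) and with a replicate block (0.0708). Centring on genes of like length (0.188) or GC content (0.058) lost it too, as did either centring with the block (0.241 and 0.0957). Of 22 alternatives, 10 kept the call. Ndufaf1, which joins parts of the membrane arm, did not overlap either, with a log2 change of −0.41 ± 0.132 (adjusted p = 0.0832).

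Complex IV held the member with the widest separation between the AM groups that the test did not call. Cox6b2, the paralog of Cox6b1 known from testis, measured 90.9, 103 and 83.3 FPKM in Ctrl-AM samples and 52.8, 45 and 51.5 FPKM in those of Tumor-AM. Every Tumor-AM value was below every Ctrl-AM value, by a factor of 0.539 between the means. The log2 change was −0.88 ± 0.291 (limma, adjusted p = 0.0871), with a 95% interval from −1.52 to −0.23. The spread in this fit includes the Tumor-macrophage samples, where Cox6b2 was low and variable. Fitted with limma on both AM groups only, the adjusted p was 0.00252, and without Tumor-macrophage 2 it was 0.00167. Of 22 alternatives, only these and rescaling to TPM (0.0378) gave a call, 3 in all. In the others Cox6b2 was not called, with an adjusted p of up to 0.216.

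**Figure D1:**
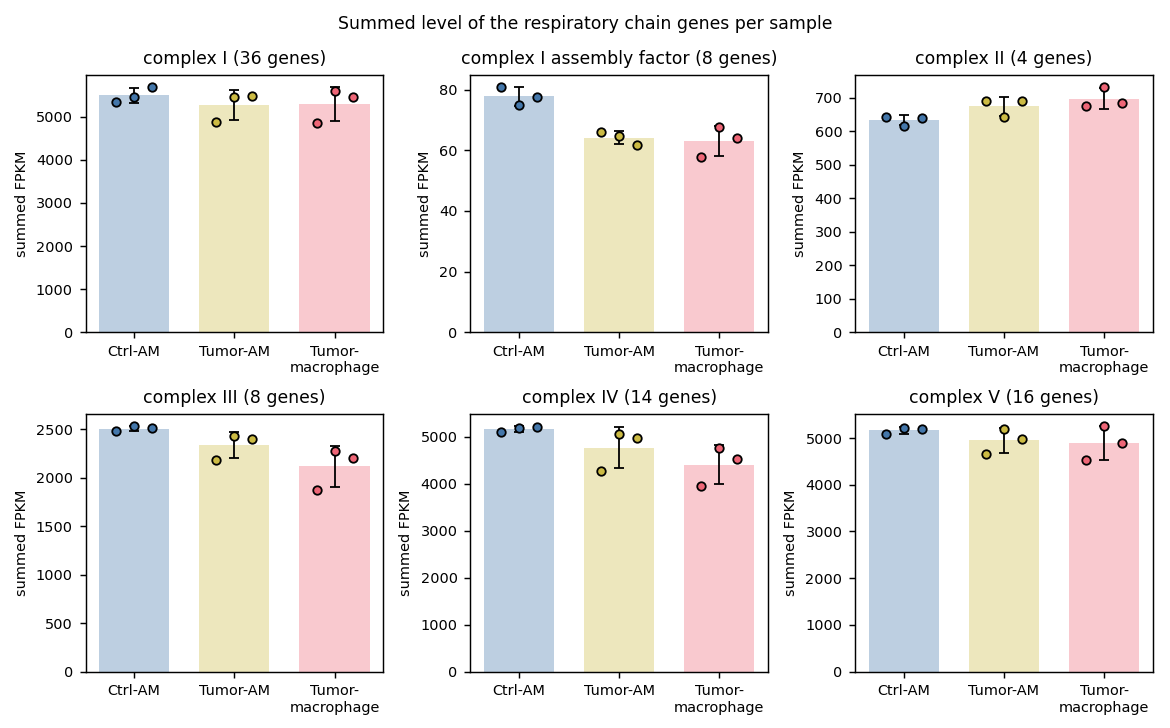
Summed FPKM (y axis) of the members of each complex in each sample. Bars are means of 3 samples, error bars SD and points single samples. Each Ctrl-AM sum of complex III, complex IV and the complex I assembly factors lay above those of the other groups. The Tumor-AM and TAM sums overlapped in all 6 panels.

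In the second comparison, Tumor-macrophage against Tumor-AM, the 2 populations of tumor-bearing mice were set side by side. Few respiratory chain genes passed the test, and most that did were lower in TAMs. Among all genes tested, 24.2% were higher and 24.4% lower. Among the 87 members, 3 (3.45%) were higher and 13 (14.9%) lower. One of those counted as higher in each TAM comparison was Cox6a2, which passed the filter on low values only through its TAM level; without it, 2 of 86 were higher in each. Their median absolute log2 change was 0.13, against 0.33 for all genes, and their median change was −0.03 against 0.00. The third comparison, Tumor-macrophage against Ctrl-AM, shares the Tumor-macrophage samples and is given beside it. There 3 members were higher and 22 (25.3%) lower, beside 27.7% and 27.1% of all genes. After centring on genes of like length, 8 members were higher and 18 lower in that comparison. Without Tumor-macrophage 1 the counts were 6 higher and 12 lower against Tumor-AM, and 8 higher and 17 lower against Ctrl-AM. The lower share of members called is a description of this list and was not tested.

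**Figure D2:**
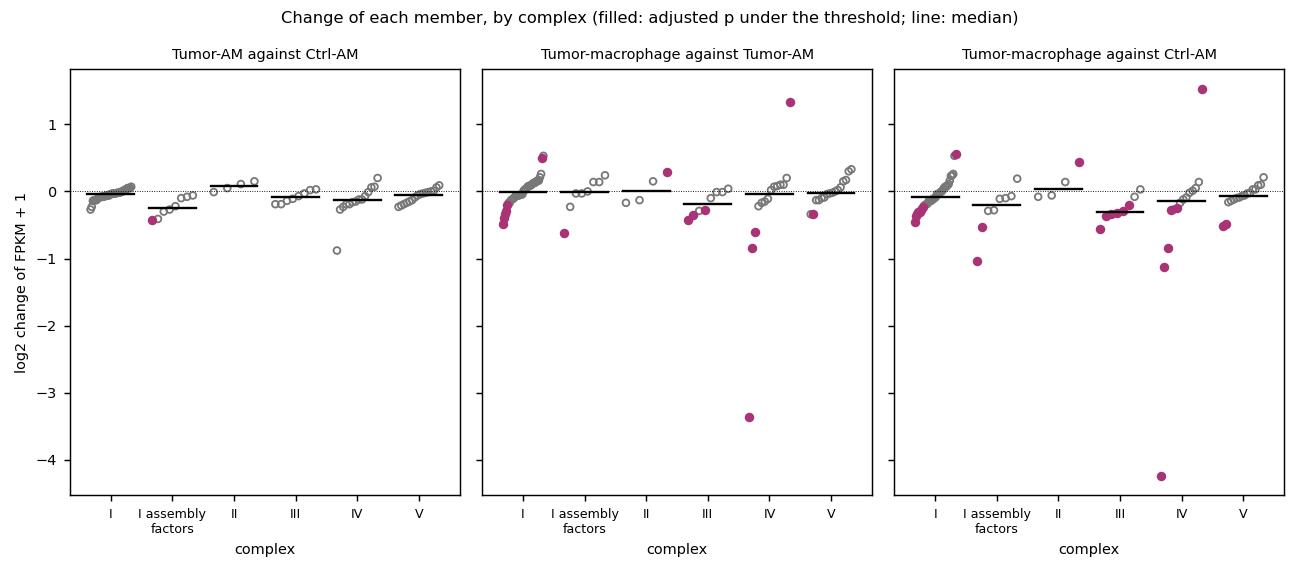
Log2 change of FPKM + 1 (y axis) for each member, by complex (x axis), in the 3 comparisons. Filled points had an adjusted p below 0.05 (limma) and lines are medians. The points far from 0 are Cox6b2 at −3.36 and −4.24 and Cox6a2 at 1.33 and 1.53, and most others lie close to 0. Cox6a2 passed the filter on low values only through its TAM level, so its filled points carry no test result.

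Complex I changed in a few subunits. Of its 36 genes, 1 was higher (2.78%) and 5 lower (13.9%) against Tumor-AM, beside 24.2% and 24.4% of all genes. Against Ctrl-AM, 1 was higher (2.78%) and 7 were lower (19.4%), beside 27.7% and 27.1%. In the peripheral arm, which holds the NADH site, 4 of 16 genes (25%) were lower against Tumor-AM, beside the 24.4% of all genes, and 1 of the 19 accessory genes of the membrane arm (5.26%) was. Of the 7 core subunits encoded in the nucleus, 3 were lower in both. Among them were Ndufv1, which binds NADH and the flavin, and Ndufs1, which carries iron-sulfur clusters. Ndufv1 measured 77.1, 78.2 and 78.8 FPKM in Ctrl-AM samples, 79.3, 78.9 and 82 for Tumor-AM and 55.7, 61.7 and 52.5 for TAMs. The AM groups were nearly level and each TAM sample lay below both. Its log2 change was −0.49 ± 0.0716 against Tumor-AM (limma, adjusted p = 0.000199) and −0.46 ± 0.0716 against Ctrl-AM (adjusted p = 0.000295). Ndufv2, its partner at the tip of the arm, did not pass, with 0.03 (95% interval −0.15 to 0.20) and 0.05. The ratio of Ndufv1 to Ndufv2 was 0.912 ± 0.0183 in Ctrl-AM samples, 0.923 ± 0.0276 for Tumor-AM and 0.64 ± 0.0771 for TAMs (SD, n = 3).

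Ndufs1 fell by 0.39 on the log2 scale against Tumor-AM (limma, adjusted p = 0.00217). The exons of Ndufs1 overlap those of Eef1b2 on the other strand, whose log2 change there was 0.39, the opposite direction. Among accessory subunits, Ndufb7 of the membrane arm was called, with 174, 211 and 219 FPKM in Tumor-AM and 158, 161 and 158 FPKM in Tumor-macrophage (log2 change −0.33 ± 0.086, adjusted p = 0.00836). Ndufs6, a zinc-binding accessory subunit of the peripheral arm, fell by 0.20 (adjusted p = 0.0228), a call lost without Tumor-AM 2 (0.0629) or Tumor-macrophage 2 (0.0541). Against Ctrl-AM, Ndufa6 and Ndufv3 of the peripheral arm were also lower, by −0.31 and −0.23 (adjusted p = 0.0111 and 0.0473). The call of Ndufv3 was lost without any 1 of 5 libraries (Ctrl-AM 2 or 3, Tumor-AM 3, Tumor-macrophage 1 or 3), with an adjusted p of 0.0611 to 0.159.

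Ndufc2, an accessory subunit of the membrane arm, went the other way. It measured 91.7, 105 and 102 FPKM in Ctrl-AM samples, 101, 102 and 107 FPKM for Tumor-AM and 146, 149 and 144 FPKM for TAMs. The TAM samples lay close together and above all AM samples. The log2 change was 0.50 ± 0.0682 against Tumor-AM (limma, adjusted p = 0.000132) and 0.55 ± 0.0682 against Ctrl-AM (adjusted p = 5.12e-05). Its level relative to the median of the other complex I members was 0.677 ± 0.0217 in Ctrl-AM samples, 0.762 ± 0.0495 for Tumor-AM and 1.13 ± 0.0942 for TAMs. Ndufs5 had the highest estimate among complex I genes against Tumor-AM, 0.53, but with an SE of 0.35 and overlapping groups it did not pass (adjusted p = 0.236).

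The assembly factor Ndufaf1 had the largest decrease of its list in both TAM comparisons. It measured 12.2, 12.6 and 11.5 FPKM in Ctrl-AM samples, 9.81, 9.37 and 7.57 FPKM for Tumor-AM and 4.41, 5.91 and 6.06 FPKM for TAMs. No group overlapped another, and the order was Ctrl-AM, Tumor-AM, Tumor-macrophage from high to low. Its log2 change was −0.62 ± 0.132 against Tumor-AM (limma, adjusted p = 0.00268) and −1.03 ± 0.132 against Ctrl-AM (adjusted p = 7.03e-05). Ndufaf4 was below its Ctrl-AM level, at −0.53 ± 0.14 (adjusted p = 0.00879), at only 2.41 to 3.84 FPKM in Tumor-macrophage. Ndufaf2, called between the AM groups, was not called in either TAM comparison, with 0.14 and −0.28.

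Complex II, which is also an enzyme of the citric acid cycle, had 1 called gene among its 4, and it rose. That share of 25% in each TAM comparison stood beside 24.2% and 27.7% of all genes called higher. Sdhb, the iron-sulfur subunit, measured 205, 197 and 199 FPKM in Ctrl-AM samples, 219, 207 and 244 for Tumor-AM and 264, 286 and 268 for TAMs. The 3 groups did not overlap. The log2 change was 0.29 ± 0.0732 against Tumor-AM (limma, adjusted p = 0.00804) and 0.44 ± 0.0732 against Ctrl-AM (adjusted p = 0.000455). After rescaling to TPM the direction held and neither call did, with an adjusted p of 0.0809 and 0.0501. Sdha, the flavoprotein that oxidizes succinate, had −0.17 and −0.06, with intervals from −0.33 to −0.01 and from −0.22 to 0.10, and was not called. The membrane anchors Sdhc and Sdhd were not called either, at 0.15 and −0.13 against Tumor-AM. The ratio of Sdhb to Sdha was 1.48 ± 0.0754 in Ctrl-AM samples, 1.53 ± 0.201 for Tumor-AM and 2.09 ± 0.105 for TAMs (SD, n = 3).

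Complex III had the largest share of lowered genes among the 5 complexes. Of its 8 members, 3 (37.5%) were lower against Tumor-AM and 6 (75%) against Ctrl-AM, beside 24.4% and 27.1% of all genes. In either comparison 0 were higher. Without Tumor-macrophage 1 these counts of lower genes were 3 and 4. After centring on length they were 4 and 3, beside 26.9% and 30.5% of all genes. The median log2 change was −0.19 against Tumor-AM and −0.30 against Ctrl-AM, and stayed below that of all genes under TPM, quantile and median-ratio scaling. Leaving out Tumor-macrophage 1 brought the medians to −0.09 and −0.22. The summed level was 2506 ± 25.6 FPKM in Ctrl-AM samples, 2338 ± 137 for Tumor-AM and 2118 ± 213 for TAMs.

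Uqcrfs1, the Rieske iron-sulfur protein that takes electrons from ubiquinol, had the largest decrease of complex III. It measured 143, 137 and 139.8 FPKM in Ctrl-AM samples, 125, 129 and 127 for Tumor-AM and 85.3, 105 and 95.5 for TAMs. The groups did not overlap, and the distance from Tumor-AM to Tumor-macrophage was the wider one. The log2 change was −0.42 ± 0.0783 against Tumor-AM (limma, adjusted p = 0.00124) and −0.56 ± 0.0783 against Ctrl-AM (adjusted p = 0.000137). The core proteins Uqcrc1 and Uqcrc2 fell by 0.35 and 0.28 against Tumor-AM (adjusted p = 0.0126 and 0.0104). The small subunits Uqcrb, Uqcr11 and Uqcrh were called against Ctrl-AM and not against Tumor-AM, at −0.36, −0.29 and −0.20 (adjusted p = 0.018, 0.0227 and 0.0228). The call of Uqcrb was lost without Ctrl-AM 2, Ctrl-AM 3 or Tumor-macrophage 1, with an adjusted p of 0.0543 to 0.0602. That of Uqcr11 was lost without Ctrl-AM 1, Ctrl-AM 2 or Tumor-macrophage 1 (0.0624 to 0.0767), and that of Uqcrh without Ctrl-AM 2, Ctrl-AM 3 or Tumor-macrophage 2 (0.054 to 0.0896). Uqcrq, with −0.01 and 0.03, and Uqcr10, with 0.04 and −0.08, were not called. Cyc1, the cytochrome c1 subunit, and Cycs, cytochrome c itself, lie outside the naming pattern and were not called, at 0.09 and 0.05 against Tumor-AM.

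**Figure D3:**
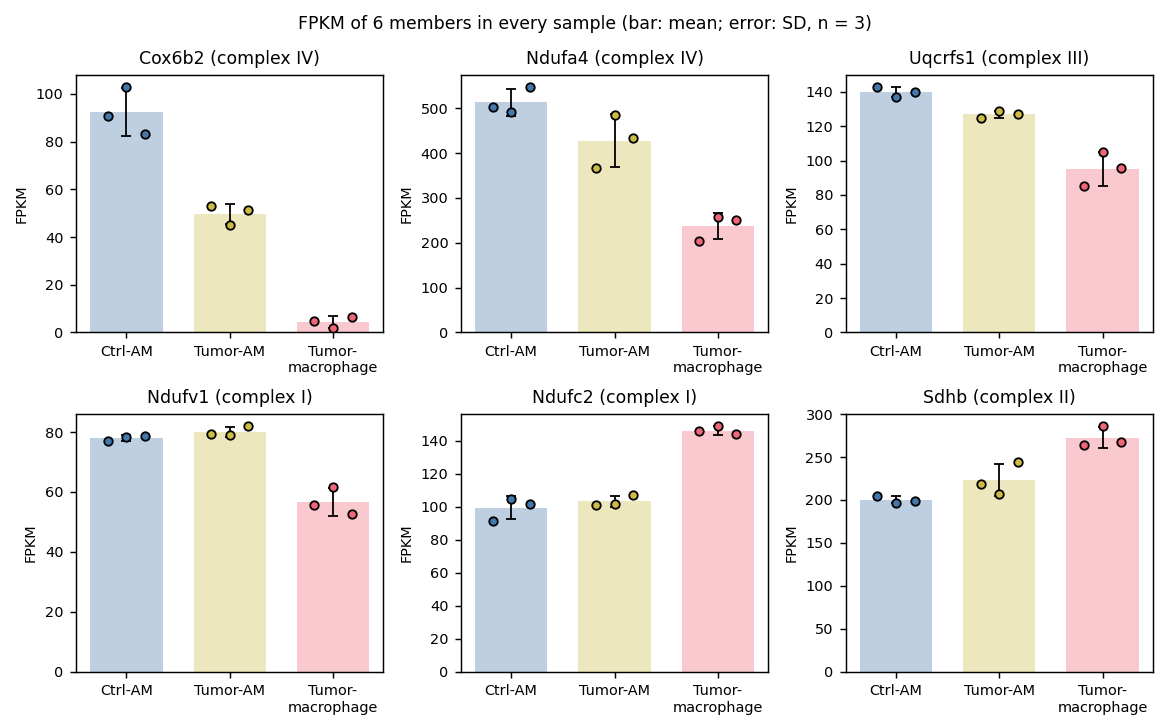
FPKM (y axis) of 6 members in each sample of the 3 groups; bars are means, error bars SD (n = 3) and points single samples. Cox6b2, Ndufa4, Uqcrfs1 and Ndufv1 were lowest in Tumor-macrophage, and Ndufc2 and Sdhb highest.

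Complex IV held the widest decreases, in the isoform gene Cox6b2 and in Ndufa4. Of its 14 genes, 3 (21.4%) were lower against Tumor-AM and 5 (35.7%) against Ctrl-AM, beside 24.4% and 27.1% of all genes. The 1 counted as higher in each (7.14%, beside 24.2% and 27.7%) was Cox6a2, which passed the filter only through its TAM level. Cox6b2 lies at chr7:4751792-4753094 on the minus strand (GRCm38), overlaps no other annotated exon, and none of its 75-base windows occurs in another transcript. After 92.3 ± 9.84 FPKM in Ctrl-AM samples and 49.8 ± 4.16 FPKM in those of Tumor-AM, it measured 4.95, 1.71 and 6.37 FPKM in Tumor-macrophage. These are an estimated 19.9, 7.02 and 28.6 reads, against 204 to 254 in Tumor-AM. Each TAM sample lay far below each AM sample. The log2 change was −3.36 ± 0.291 against Tumor-AM (limma, adjusted p = 4.02e-06) and −4.24 ± 0.291 against Ctrl-AM (adjusted p = 5.02e-07). The call held in all 22 alternatives, with log2 changes of −3.67 to −2.93 against Tumor-AM.

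Cox6b1, the common paralog, changed far less. Its log2 change was −0.17 ± 0.0809 against Tumor-AM (adjusted p = 0.0999) and −0.24 ± 0.0809 against Ctrl-AM (limma, adjusted p = 0.0274). The second call was lost without any 1 of 5 libraries (Ctrl-AM 1, 2 or 3, Tumor-macrophage 1 or 3), with an adjusted p of up to 0.0941. On the scale per transcript length, Cox6b2 made up 9.63% ± 1.12 of the Cox6b1 and Cox6b2 RNA in Ctrl-AM samples, 5.69% ± 0.796 for Tumor-AM and 0.599% ± 0.338 for TAMs (SD, n = 3). The groups did not overlap in this share. Its fall in TAMs moved the summed FPKM of the pair little, since Cox6b1 supplied most of it in every sample.

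Ndufa4, first described with complex I and since assigned to complex IV, was the abundant subunit that fell most. It measured 503, 491 and 548 FPKM in Ctrl-AM samples, 366, 484 and 434 for Tumor-AM and 203, 257 and 249.7 for TAMs. TAM samples lay at about 0.553 times the Tumor-AM mean, and the groups did not overlap. The log2 change was −0.85 ± 0.116 against Tumor-AM (limma, adjusted p = 0.000134) and −1.12 ± 0.116 against Ctrl-AM (adjusted p = 1.37e-05). Between the AM groups it was −0.27 (95% interval −0.53 to −0.01, adjusted p = 0.181). Relative to the median of the other complex IV members, Ndufa4 stood at 1.62 ± 0.0989 in Ctrl-AM samples, 1.29 ± 0.103 for Tumor-AM and 0.674 ± 0.0248 for TAMs. Ndufa4l2, its paralog known to respond to low oxygen, reached at most 0.238 FPKM in any sample.

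The heart and muscle isoforms of complex IV were scarce. Cox7a1 measured 16.5, 16.7 and 20.3 FPKM in Ctrl-AM samples, 14.7, 11.6 and 19.4 for Tumor-AM and 6.81, 9.39 and 13.2 for TAMs. The last 2 groups overlapped, and the log2 change of −0.60 ± 0.221 (limma, adjusted p = 0.0435) was lost on leaving out any of 7 libraries (Ctrl-AM 1, 2 or 3, Tumor-AM 1 or 3, Tumor-macrophage 1 or 2). Against Ctrl-AM it was −0.84 ± 0.221 (adjusted p = 0.00819). Cox7a2, the common form, was not called, at 0.10 and −0.02. Cox6a2 measured 0.542, 0 and 0.158 FPKM in Ctrl-AM samples, 0.192, 0.53 and 0.486 for Tumor-AM and 2.59, 2.13 and 2.84 for TAMs. It reached 1 FPKM only in Tumor-macrophage and so had to differ once it passed the filter, and its values are given as a description with no test. The TAM level stands for an estimated 15.2 to 22.2 reads. Its exons overlap Itgad on the other strand, which went from 1.65 ± 0.976 to 0.163 ± 0.088 FPKM, the opposite direction. Cox6a1, the common form, stood at group means of 517 to 584 FPKM and was not called.

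Among the other complex IV genes, Cox4i1, the common form of the regulatory subunit, was below its Ctrl-AM level, at −0.28 ± 0.0693 (limma, adjusted p = 0.00606) and not called against Tumor-AM (−0.15, adjusted p = 0.0903). Cox4i2, the lung isoform, reached at most 0.843 FPKM in any sorted sample, just below the filter. Cox5a, Cox5b, Cox7b and Cox8a were not called in any comparison, with log2 changes against Tumor-AM of −0.22, 0.08, 0.02 and 0.20. The isoforms Cox7b2, Cox8b and Cox8c were listed at 0 in all 9 samples. Cox7a2l, listed here as the supercomplex factor, was not called either, at 0.07 against Tumor-AM and −0.15 against Ctrl-AM.

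Complex V had the smallest share of called genes of the 5 complexes. Of its 16 genes, 1 (6.25%) was lower against Tumor-AM and 2 (12.5%) against Ctrl-AM, beside 24.4% and 27.1% of all genes. None of the 5 genes of the F1 head was called in any comparison, with log2 changes of −0.13 to −0.00 against Tumor-AM; all 5 intervals lay within 0.5 of 0. Atp5b, the catalytic subunit, measured 789, 731 and 728 FPKM in Ctrl-AM samples, 724, 783 and 714 for Tumor-AM and 689.9, 807 and 703 for TAMs. The 3 groups overlapped throughout, and its change against Tumor-AM was −0.02 (95% interval −0.19 to 0.16). The α subunit Atp5a1 had −0.00 and the central stalk subunit Atp5c1 −0.09 in the same comparison.

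The 1 complex V gene called against Tumor-AM was Atp5g3. It is one of the genes Atp5g1, Atp5g2 and Atp5g3, which encode the same mature c subunit of the rotor ring with different import signals. Atp5g3 measured 504, 529.7 and 515 FPKM in Ctrl-AM samples, 445, 500.1 and 454 for Tumor-AM and 365, 374 and 366 for TAMs. Its log2 change was −0.34 ± 0.0648 against Tumor-AM (limma, adjusted p = 0.00135) and −0.49 ± 0.0648 against Ctrl-AM (adjusted p = 9.17e-05). Atp5g1 and Atp5g2 were not called, at −0.13 and 0.15. Of the summed level of the 3 genes, Atp5g3 made up 50.5% ± 0.843 in Ctrl-AM samples, 49.7% ± 2.08 for Tumor-AM and 43.9% ± 2.56 for TAMs (SD, n = 3). Every 75-base window of Atp5g2 and 59.6% of those of Atp5g1 also occur in another transcript, so their values and these shares are uncertain, while Atp5g3 had no such window. Atp5s, a coupling factor at 1.97 to 3.89 FPKM in Tumor-macrophage, was below its Ctrl-AM level, at −0.51 ± 0.174 (adjusted p = 0.0284). That call was lost without any 1 of 5 libraries (Ctrl-AM 1, 2 or 3, Tumor-macrophage 1 or 2).

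**Figure D4:**
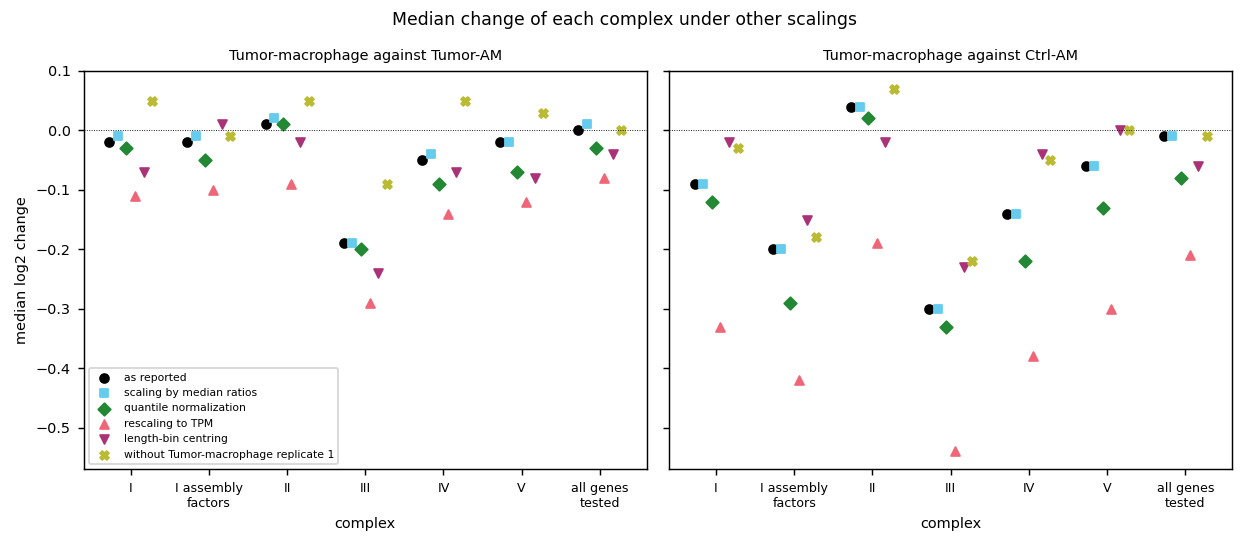
Median log2 change (y axis) of each complex and of all genes tested (x axis) in both TAM comparisons, as reported and under other scalings, length centring and without Tumor-macrophage 1. Rescaling to TPM lowered every median, that of all genes against Ctrl-AM from −0.01 to −0.21; complex III was lowest of the 5 complexes under each, whereas complex II changed sign.

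The choice of scaling sets how many members appear lowered. Rescaling to TPM moved the median of all genes to −0.08 against Tumor-AM and −0.21 against Ctrl-AM, and then 19 members (21.8%) and 58 members (66.7%) were lower, beside 29.2% and 41.3% of all genes. Quantile normalization gave 19 (21.8%) and 34 (39.1%), beside 26.2% and 32.1%. Relative to those shifted medians, complex III stood at −0.21 and −0.32 and complex II at −0.00 and 0.02. All FPKM of a sample summed to 635560 to 660730 in Ctrl-AM, 694977 to 731731 for Tumor-AM and 743858 to 785745 for TAMs. TPM sets these sums equal. Apoe had a mean of 27853 FPKM in TAMs against 452 in Tumor-AM, and the part of such RNAs in the sums was not tested. As a sum over members, TPM-scaled levels were 29389 ± 999 in Ctrl-AM samples, 25293 ± 919 for Tumor-AM and 22906 ± 2251 for TAMs. On the deposited scale the same sums were 19131 ± 286, 18152 ± 1141 and 17556 ± 1410 FPKM. The AM groups did not overlap on the TPM scale, at 28638 to 30523 and 24234 to 25877. On the deposited scale the highest Tumor-AM sum was 18935 and the lowest Ctrl-AM sum 18830, so they overlapped.

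Other genes of the pathway were taken from fixed lists. Of the 36 assembly factors tested outside the naming pattern, 3 were higher (8.33%) and 6 lower (16.7%) against Tumor-AM, beside 24.2% and 24.4% of all genes. Cox19, which serves copper delivery to complex IV, had −0.65 (limma, adjusted p = 0.000303) and Coa5, also needed to build complex IV, 0.65 (adjusted p = 0.000283). Tmem70, which helps assemble complex V, had −0.51 (adjusted p = 0.00204). Between the AM groups 3 were lower (8.33%, beside 3.18% of all genes) and 0 higher, namely Coa6 (−0.57, adjusted p = 0.0207), Uqcc3 (−0.47, adjusted p = 0.0203) and Cox14 (−0.35, adjusted p = 0.00629).

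Of 18 genes for the citric acid cycle and pyruvate dehydrogenase, which supply NADH, 8 (44.4%) were lower and 0 higher in Tumor-macrophage than in Tumor-AM, beside the 24.4% and 24.2% of all genes. Ogdh, of the oxoglutarate dehydrogenase complex, fell from 56.2 to 34.5 FPKM (−0.69, limma, adjusted p = 3.41e-05). Dld, shared by both dehydrogenase complexes, had −0.57 (adjusted p = 0.00105) and Pdhb, of pyruvate dehydrogenase, −0.49 (adjusted p = 0.000165). Citrate synthase, Cs, was the 1 gene of the list that rose between the AM groups (0.28, adjusted p = 0.0494). Of 18 import and channel genes, 3 were higher (16.7%) and 4 lower (22.2%) against Tumor-AM. Slc25a5, an ADP/ATP carrier, fell from 1086 to 823 FPKM (−0.40, adjusted p = 0.000563), and the phosphate carrier Slc25a3 rose from 245 to 294 FPKM (0.26, adjusted p = 0.00257).

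Of the 12 regulators tested, 1 was higher (8.33%) and 2 were lower (16.7%) against Tumor-AM, beside the same 24.2% and 24.4%. Hif1a, a factor of the response to low oxygen, stood at 20.7 FPKM in Ctrl-AM samples, 35.9 for Tumor-AM and 84.5 for TAMs, with log2 changes of 0.75 between the AM groups (limma, adjusted p = 0.00418) and 1.21 against Tumor-AM (adjusted p = 1.33e-05). Tfb2m, for mitochondrial transcription, and Esrra, a nuclear receptor that acts on respiratory genes, had −0.33 and −0.36 (adjusted p = 0.0301 and 0.038). Nrf1, Gabpa and Yy1, whose motif letters were searched in the promoters, were not called in any comparison. Ppargc1a, the coactivator best known for inducing mitochondria, had a mean of at most 0.0168 FPKM in each group.

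**Figure D5:**
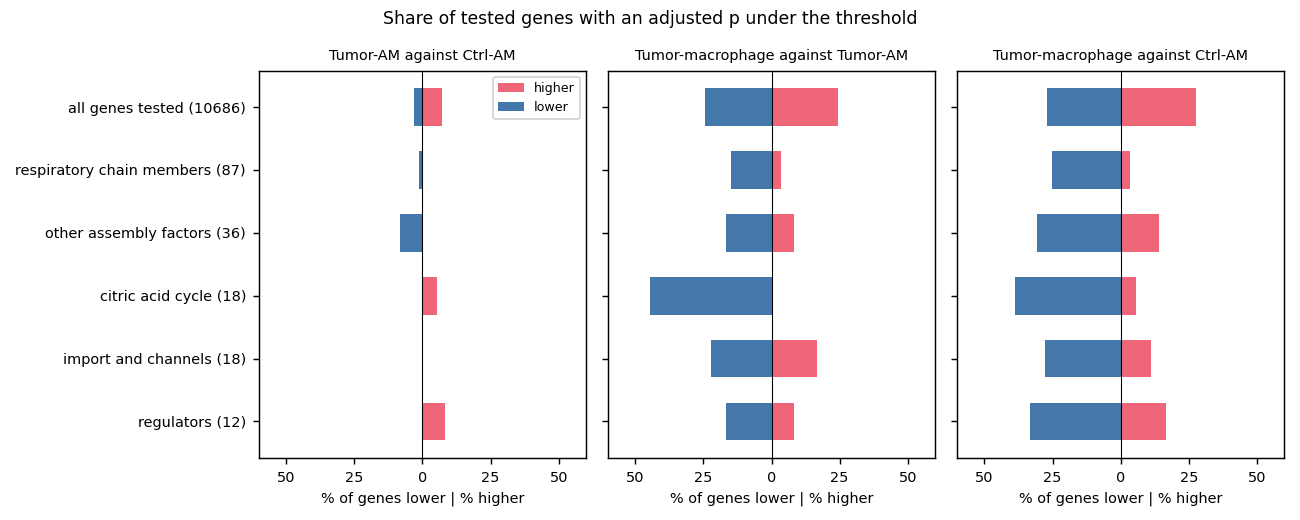
Share of tested genes (x axis, %) that were lower (left, blue) or higher (right, red) in each comparison, for all genes, the members and the other lists, with the number tested in brackets. Members had 3.45% higher and 14.9% lower against Tumor-AM, beside 24.2% and 24.4% of all genes. The higher share includes Cox6a2, which passed the filter only through its TAM level. Without it the shares were 2.33% and 15.1%.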

How the data were processed

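RNA sequencing of 9 samples (3 per group) was used. According to the study's methods and the labels, the authors made cDNA with SMART-Seq HT and Nextera libraries, read 75 bases single-end, mapped to mm10 with TopHat 2.1.1 and Bowtie2 2.2.3, and deposited FPKM from Cufflinks/Cuffdiff 2.2.1, 1 value per gene symbol. Annotation, strand and treatment of multiply mapping reads were not given in the sources used here. FPKM divides by transcript length and mapped reads.

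Members and gene lists were chosen with earlier results of these data known; Atp5sl was placed with the assembly factors after the tables were read. Genes with 1 FPKM or more in 3 of 9 samples (10686) were fitted as log2(FPKM + 1) with limma 3.58.1 (R 4.3.3; intensity trend, all groups sharing 1 spread, two-sided), p-values adjusted over all genes by Benjamini-Hochberg with a threshold of 0.05. The pseudocount understates changes of low genes. The fit was tested on simulated data. Named members were core subunits, paralogs and, per complex and comparison, the 3 called genes with the largest rise and fall. Depth was estimated from steps of low values, and reads per gene from depth and transcript length, covering counting error only. The methods give 3 mice per population, and the labels tie no sample to a mouse, so p-values measure the spread between these samples. Lengths, GC and overlaps came from GENCODE vM21 (GRCm38; 98.32% of symbols matched), promoters from RefSeq, both read with Python 3.11.15. Alternatives were another pseudocount, filters, scalings, length or GC centring, fits of the compared groups, a constant prior variance, a replicate block and leaving out each library. The values of 1 member are not reported here.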

Additional observations from a re-analysis of the deposited data

How the results depend on the processing

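Values are counts of members higher or lower, or median log2 changes, as named. For Tumor-AM against Ctrl-AM, the 1 lower member became 0 with no filter on low values, under length-bin centring and under the replicate block with length-bin centring, 2 under quantile normalization and with only the groups compared, and 13 after rescaling to TPM, where the median change was −0.20. Leaving out single libraries gave 0 to 2 lower members and 0 higher ones in each fit.

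For Tumor-macrophage against Tumor-AM, rescaling to TPM gave a median change of −0.11. Without single libraries, higher members ran from 3 to 6, lower members from 12 to 15 and the median from −0.07 to 0.02; it turned positive without Tumor-macrophage 1 and without Tumor-AM 2. For Tumor-macrophage against Ctrl-AM, length-bin centring gave 8 higher members, quantile normalization 34 lower ones (39.1%, beside 32.1% of all genes) and rescaling to TPM 58 lower ones (66.7%, beside 41.3%) with a median of −0.33. Without single libraries, higher members ran from 3 to 8 and lower ones from 17 to 26. Rescaling to TPM sets an equal sum in each sample by construction, and why the counts moved was not tested for any setting.

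Groups share replicate numbers, and the deviations of same-numbered samples correlated between −0.062 and 0.159 across the comparisons, not above 0.1 in every pair. Whether same-numbered Tumor-AM and Tumor-macrophage samples came from the same mice is not given in the labels, and these correlations cannot decide it. The reported fit took the samples as unpaired. With the replicate block, lower members were 0 between the AM groups, higher members were 7 against Tumor-AM (5 with GC-bin centring added, with 20 lower) and 6 against Ctrl-AM (8 with length-bin centring added).

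Of 2367 values of single named members under 22 alternatives, 2243 kept direction where called and side of the threshold, 44 lost a call, 80 gained one and 0 called values changed sign; 116 uncalled ones did. Members under 10 FPKM rest on few reads, and the number of samples limits the rest.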
